A study of Mus musculus with 10 samples.

Results

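Transcripts of the aminoacyl-tRNA synthetases were measured in the hearts of A-PDK1KO mice and their controls. The genes were chosen by symbol in the deposited table: a capital amino acid letter followed by ars, with an optional final 1 or 2, or Eprs, Eprs1, Farsa or Farsb. The rule found 37 of the 11790 genes in the table, 20 for the cytosolic enzymes and 17, whose symbols end in 2, for the mitochondrial enzymes. The rule uses symbols and no measured value, and it was set with earlier results of these data known. RNA came from 10 hearts of mice aged 10 to 11 weeks and killed in the randomly fed state. The A-PDK1KO group was made up of 5 mice that lacked 3-phosphoinositide-dependent kinase 1 (PDK1, gene Pdpk1) in adipocytes only. The other 5, PDK1 flox/flox, carried the floxed gene and served as controls. The sources used here do not name the promoter that drove the deletion, the strain or the sex. The series is presented as a model of diabetic heart disease with impaired use of branched-chain amino acids in the heart.

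Aminoacyl-tRNA synthetases join each amino acid to its transfer RNA, the step that fixes the meaning of the genetic code. Mammalian cells keep separate sets for the cytosol and for the mitochondrion, where a small set of respiratory chain proteins is made. All mitochondrial synthetases are encoded in the nucleus. Several cytosolic enzymes sit in a large multi-synthetase complex, held together by the scaffold proteins encoded by Aimp1, Aimp2 and Eef1e1. When an amino acid runs short, its uncharged tRNA activates the kinase GCN2, and translation of the transcription factor ATF4 goes up. ATF4 is known to raise the transcription of many cytosolic synthetase genes. Inherited defects of mitochondrial synthetases cause disease in tissues of high energy demand, and those of AARS2 are a known cause of infantile cardiomyopathy.

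The value of a single read, recovered from the FPKM (fragments per kilobase of exon, scaled to library size), implied 9249256 to 11384423 counted reads per heart. All 5 cardiomyocyte markers were in the table, and their summed FPKM was 11400 to 13900 for control and 10700 to 12500 for A-PDK1KO hearts. The 4 adipocyte and the 4 T and B cell markers were not in the table, which holds genes that reach 1.00 FPKM in at least 1 heart. Pdpk1 ranged from 2.73 to 4.04 FPKM over the 10 hearts, and the deletion was made in another tissue. Atrial tissue was unequal, with Myl7 at 0 to 85.9 FPKM over the 10 hearts. The 4 erythroid markers were unequal too, with a summed FPKM of 27.5 to 1380 for control and 68.1 to 226 for A-PDK1KO hearts. The labels do not say more than that each sample is a separate heart, and p-values measure the spread between these samples. In bulk RNA, fewer cells of a type and less RNA per cell cannot be told apart.

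RefSeq promoter windows of 300 bases (250 before and 50 after the start, build GRCm38.p6) were matched by symbol for 27 of the 37 genes, 13 cytosolic and 14 mitochondrial. Among the genes without a match were Cars, Hars, Hars2, Lars, Nars, Pars2, Rars, Vars and Wars. The letters TGATGNAA, the core of the C/EBP-ATF response element that ATF4 binds, were searched on both strands. They were found for 5 of 13 cytosolic genes (38.5%), for 0 of 14 mitochondrial genes and in 3.97% of all 32851 windows. Synthetases were counted by gene and the comparison by window, here and below, so the shares are not strictly alike. These are descriptions of letters in a window, and binding was not measured. The 5 genes were Aars, Gars, Iars, Tars and Yars, for alanine, glycine, isoleucine, threonine and tyrosine. Aars held 2 matches. The windows are shown 5′ to 3′ along the gene because the amino acid response is known to act through this element, with each match in capitals (TTGCATCA and TTTCATCA are matches on the opposite strand).
Aars promoter, chr8:111033592-111033891, plus strand: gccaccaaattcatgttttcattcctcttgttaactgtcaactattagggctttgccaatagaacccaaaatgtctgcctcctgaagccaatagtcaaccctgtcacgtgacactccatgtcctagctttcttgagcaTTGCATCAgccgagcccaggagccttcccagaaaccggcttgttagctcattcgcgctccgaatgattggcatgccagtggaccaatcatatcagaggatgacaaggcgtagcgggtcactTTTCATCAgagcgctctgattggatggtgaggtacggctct
Gars promoter, chr6:55037751-55038050, plus strand: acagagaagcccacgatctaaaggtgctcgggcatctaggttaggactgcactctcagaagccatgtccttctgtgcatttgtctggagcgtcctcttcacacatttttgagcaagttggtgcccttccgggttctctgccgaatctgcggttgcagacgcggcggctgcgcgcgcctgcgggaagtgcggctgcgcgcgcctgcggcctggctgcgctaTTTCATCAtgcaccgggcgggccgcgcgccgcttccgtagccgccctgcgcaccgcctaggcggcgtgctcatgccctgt
Iars promoter, chr13:49681880-49682179, plus strand: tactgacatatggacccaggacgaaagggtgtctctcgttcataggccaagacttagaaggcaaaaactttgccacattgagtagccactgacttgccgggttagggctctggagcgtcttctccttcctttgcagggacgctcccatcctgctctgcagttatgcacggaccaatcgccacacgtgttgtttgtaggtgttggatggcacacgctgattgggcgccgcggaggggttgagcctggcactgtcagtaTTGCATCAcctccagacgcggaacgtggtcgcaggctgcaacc
Tars promoter, chr15:11399609-11399908, minus strand: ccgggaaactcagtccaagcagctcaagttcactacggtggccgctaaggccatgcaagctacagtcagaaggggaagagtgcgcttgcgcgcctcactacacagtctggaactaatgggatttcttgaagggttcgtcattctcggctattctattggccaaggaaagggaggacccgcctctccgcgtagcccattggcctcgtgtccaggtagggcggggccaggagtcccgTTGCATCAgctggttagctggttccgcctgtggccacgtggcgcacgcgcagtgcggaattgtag
Yars promoter, chr4:129189653-129189952, plus strand: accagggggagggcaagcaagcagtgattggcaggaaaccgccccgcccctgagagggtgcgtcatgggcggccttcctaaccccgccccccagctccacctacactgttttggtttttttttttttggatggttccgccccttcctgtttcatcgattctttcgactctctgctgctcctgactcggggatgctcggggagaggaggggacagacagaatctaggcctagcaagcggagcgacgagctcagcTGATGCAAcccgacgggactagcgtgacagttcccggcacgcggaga

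In Aars the matches began 112 bases before and 9 bases after the start, in Gars 30 bases before it, in Tars 15 bases before it, in Iars 7 bases after it and in Yars 3 bases after it. These matches overlapped no match to the other motifs searched. The E-box CACGTG is a site of MYC family and related factors and reads the same on both strands. It was found for 4 of 13 cytosolic genes (30.8%), for 1 of 14 mitochondrial genes (7.14%) and in 7.15% of all windows. The NRF-1-type motif is GCGCA and GCGC with any 1 base between them on either strand. It was found for 3 cytosolic genes (23.1%), for 2 mitochondrial genes (14.3%) and in 4.6% of all windows. The ETS-type letters CCGGAAGT are the kind of site that GABP uses at genes of mitochondrial function. On either strand they were found for 2 cytosolic genes (15.4%), for 1 mitochondrial gene (7.14%) and in 3.89% of all windows. That mitochondrial gene is Rars2, the synthetase of lowest p in the comparison of genotypes. Its window is shown for that reason with the match in capitals.
Rars2 promoter, chr4:34614707-34615006, plus strand: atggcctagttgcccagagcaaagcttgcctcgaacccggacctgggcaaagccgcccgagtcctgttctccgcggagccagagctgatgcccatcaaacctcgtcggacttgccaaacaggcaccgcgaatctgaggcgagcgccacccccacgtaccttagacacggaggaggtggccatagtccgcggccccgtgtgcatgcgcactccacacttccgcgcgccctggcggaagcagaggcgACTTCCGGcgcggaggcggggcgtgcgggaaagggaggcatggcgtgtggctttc

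Every synthetase gene was detected in every heart, and the levels spanned a wide range. FPKM is scaled per length, which allows levels of different genes to be compared, but the length is the union of all annotated exons, and a gene with long rare isoforms reads low. Among the cytosolic genes control means ran from 1.72 FPKM for Cars to 22.3 FPKM for Kars, with a median of 8.74. Among the mitochondrial genes they ran from 0.853 FPKM for Wars2 to 68.5 FPKM for Lars2, and the highest after Lars2 was Iars2 at 9.17 FPKM. The median of the 15 other tested mitochondrial genes was 3.04 FPKM, against 4.34 FPKM over all genes tested. Kars and Gars, for lysine and glycine, are known to serve both compartments from a single gene each. They had the 2 highest levels of the cytosolic set.

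Kars stood at 18.5, 21.7, 24.0, 22.6 and 24.6 FPKM in the control hearts, replicates 1 to 5 in order here and throughout, and at 20.8, 18.2, 20.5, 19.7 and 21.3 FPKM in the A-PDK1KO hearts. Gars, mutated in a form of Charcot-Marie-Tooth disease, stood at 16.88, 20.46, 20.10, 21.16 and 20.05 FPKM in controls and at 17.12, 16.78, 17.44, 18.78 and 17.49 FPKM in A-PDK1KO hearts. The ranges of Kars and Gars overlapped within each group, and so did the genotypes for each gene. Nars followed at 17.1 ± 0.770 FPKM (mean ± SD, n = 5 controls) and Dars at 14.9 ± 0.664 FPKM. At the low end, Cars, for cysteine, stood at 1.61, 1.77, 1.44, 1.93 and 1.86 FPKM in controls and at 1.88, 2.18, 1.83, 1.75 and 1.58 FPKM in A-PDK1KO hearts. Farsa stood at 1.67, 1.72, 1.59, 2.19 and 1.97 FPKM in controls and at 1.77, 2.42, 1.38, 2.05 and 2.43 FPKM in A-PDK1KO hearts. Cars and Farsa did not differ beyond their spread.

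**Figure D1:**
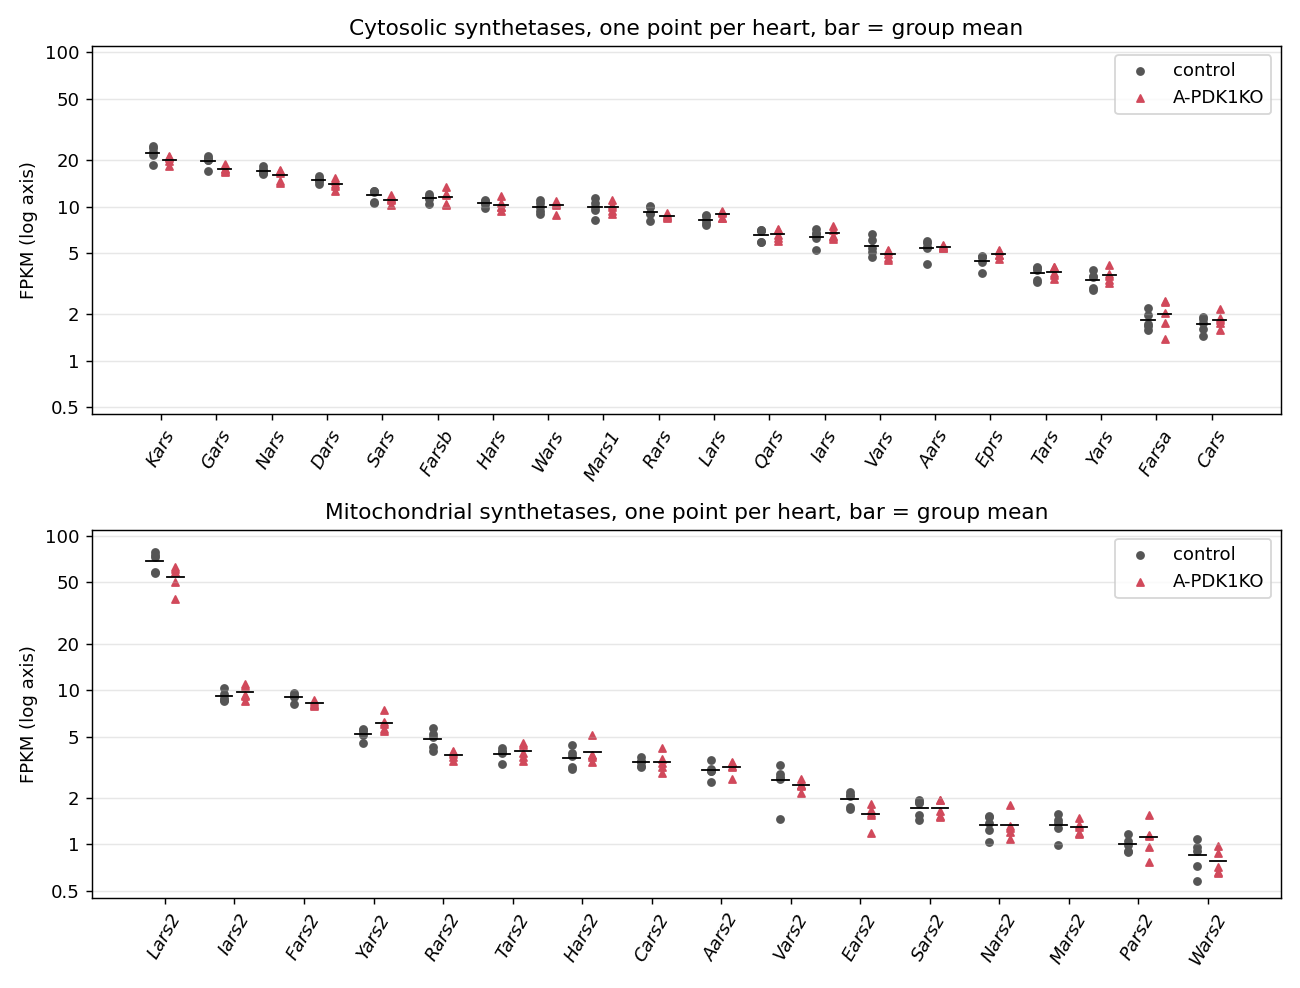
FPKM of 36 synthetase genes in every heart on a log axis, cytosolic above and mitochondrial below, ordered by the control mean; circles are the 5 control hearts, triangles the 5 A-PDK1KO hearts and bars the group means. Lars2 stands apart at a control mean of 68.5 FPKM, and the circles and triangles overlap for every gene shown.

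Farsa and Farsb encode the alpha and beta subunits of the same cytosolic phenylalanine enzyme, yet their transcript levels were far apart. Farsb was 6.29 ± 0.828 times the level of Farsa in controls and 6.12 ± 2.13 times in A-PDK1KO hearts (mean ± SD, n = 5 each). The ratio lay between 4.22 and 9.71 in every heart. The annotated exon length was 4538 bases for Farsa and 2620 bases for Farsb, and the counted reads per heart were 68 to 114 and 253 to 387. Farsa was therefore the lower in reads as well as in FPKM.

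At the low end of the mitochondrial set, Wars2, for tryptophan, stood at 0.727, 0.912, 0.965, 1.08 and 0.581 FPKM in controls and at 0.666, 0.984, 0.655, 0.886 and 0.714 FPKM in A-PDK1KO hearts. It was the only synthetase with a mean under 1 FPKM over all 10 hearts and was not tested. Pars2, for proline, stood at 0.909, 0.893, 0.996, 1.17 and 1.06 FPKM in controls and at 1.15, 1.56, 1.14, 0.767 and 0.967 FPKM in A-PDK1KO hearts, from 26 to 47 reads per heart. Its spread among controls (a coefficient of variation of 11.3%) was below the 18.1% that counting alone gives at that depth. Across the cytosolic genes the median coefficient of variation among controls was 9.81%, against 5.46% from counting, and across the mitochondrial genes 11.7% against 8.34%.

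The comparison of genotypes asked if the synthetase transcripts differed in A-PDK1KO hearts. No synthetase gene was called. With limma on log2(FPKM + 1), 0 of the 36 tested passed a Benjamini-Hochberg adjusted p under 0.05, while 208 of all 9987 genes tested passed (2.08%). Of the 208, 121 were higher (1.21%) and 87 lower (0.871%) in A-PDK1KO hearts, a split that became 323 and 67 with mitochondrially encoded and haemoglobin genes left out of the scaling. An unadjusted p under 0.05 was found for 5 of the 36 synthetases and for 15.6% of all genes tested, a like share. By direction, 1 synthetase was higher, against 8.53% of all genes tested, and 4 were lower, against 7.03%. The total of 208 calls was itself between 57 and 150 with any 1 heart left out, and lowest without A-PDK1KO replicate 5. The count of 5 became 8 without control replicate 1 and between 1 and 4 without any other heart. The share of all genes at that p is not given for these fits, so a change particular to the synthetases cannot be told. The groups of hearts overlapped for every tested synthetase, while 4.96% of all genes tested had groups that did not overlap. With limma voom on recovered reads 0 synthetases passed (2.33% of all genes) and 4 had an unadjusted p under 0.05 (15.3% of all genes).

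Among the 20 cytosolic genes the log2 fold changes ran from -0.16 to 0.13 around a median of 0.02, and 12 were above 0. Among the 16 tested mitochondrial genes they ran from -0.33 to 0.19 around a median of 0.00, with 8 above and 8 below 0. Over all 9987 genes tested the median was 0.02, with 5457 above 0. The median absolute change over all genes tested was 0.10, against 0.07 for the cytosolic and 0.07 for the mitochondrial genes. The 95% intervals show how large a difference could have gone unseen. For 9003 of all 9987 genes tested the interval lay within 1.5-fold in either direction on the log2(FPKM + 1) scale. It did for 35 of the 36 synthetases. The exception at 1.5-fold was Lars2. That scale understates the change of low genes such as Ears2.

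**Figure D2:**
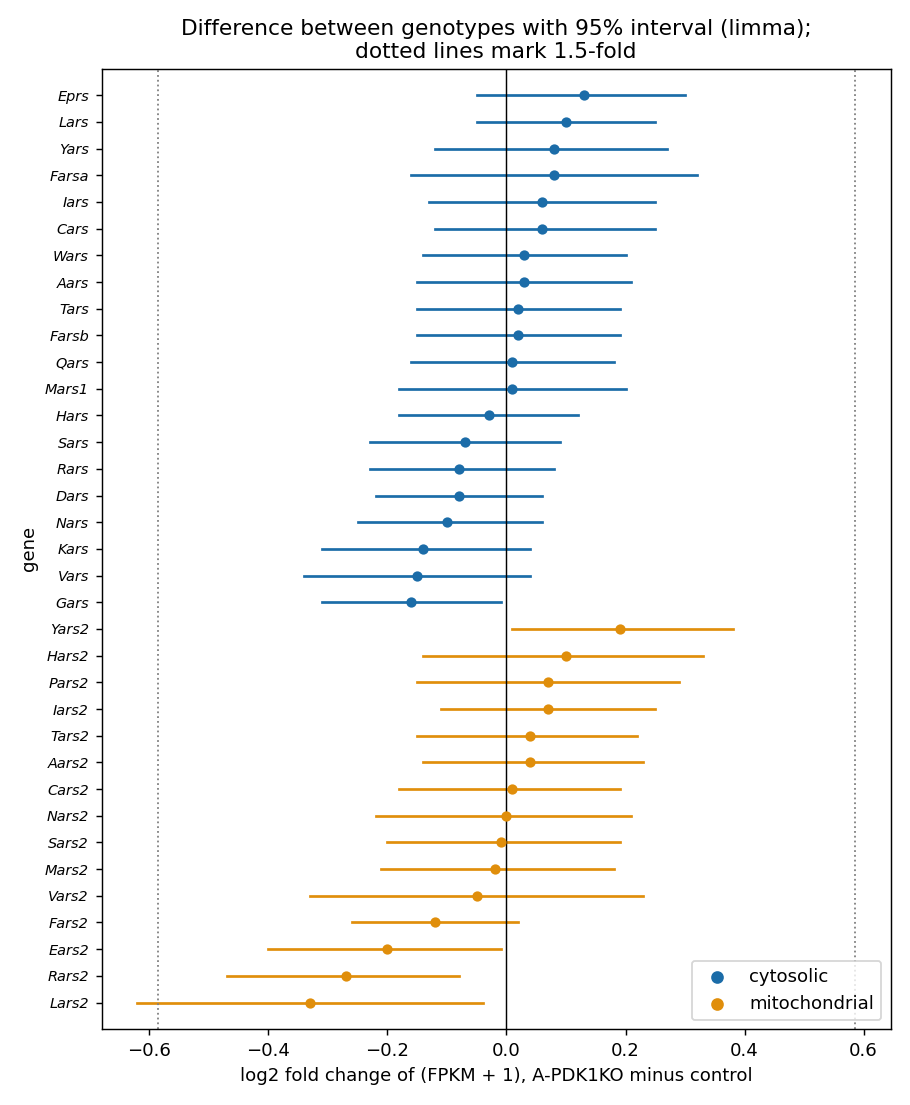
Log2 fold change of 35 tested synthetases on the log2(FPKM + 1) scale, A-PDK1KO minus control, with its 95% interval from limma; dotted lines mark 1.5-fold. Points lie between -0.33 and 0.19, and the interval of Lars2 crosses the dotted line on the lower side.

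Of the 5 genes with an unadjusted p under 0.05, the mitochondrial arginine enzyme gene Rars2, mutated in a form of pontocerebellar hypoplasia, had the lowest. Rars2 (mm10 chromosome 4, 34614957 to 34660167, plus strand) stood at 4.29, 4.95, 5.22, 5.67 and 4.04 FPKM in controls and at 3.46, 3.96, 4.05, 3.68 and 3.87 FPKM in A-PDK1KO hearts. All A-PDK1KO hearts but replicate 3 lay below every control, and replicate 3 lay level with control replicate 5. The log2 fold change was -0.27 ± 0.09 SE (95% interval -0.47 to -0.08, limma adjusted p = 0.148, n = 5 per group), from 92 to 152 reads per heart. It did not pass.

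Ears2, the mitochondrial glutamate enzyme gene whose defects cause a leukoencephalopathy, stood at 1.76, 1.70, 2.08, 2.19 and 2.05 FPKM in controls and at 1.19, 1.59, 1.56, 1.84 and 1.67 FPKM in A-PDK1KO hearts (chromosome 7, 122037213 to 122067263). A-PDK1KO replicate 4 alone lay above the lowest 2 controls. The log2 fold change was -0.20 (95% interval -0.40 to -0.01, limma adjusted p = 0.304), and -0.32 with limma voom, which adds no constant to the FPKM (adjusted p = 0.292). Yars2, the mitochondrial tyrosine enzyme gene linked to a myopathy with lactic acidosis and sideroblastic anaemia, had the only positive difference of the 5 (chromosome 16, 16302965 to 16309640). It stood at 5.49, 5.14, 5.40, 5.58 and 4.56 FPKM in controls and at 5.60, 7.43, 6.18, 5.47 and 6.07 FPKM in A-PDK1KO hearts. The highest value was in A-PDK1KO replicate 2, and A-PDK1KO replicate 5, 3 and 1 also exceeded every control. The log2 fold change was 0.19 (95% interval 0.01 to 0.38, limma adjusted p = 0.306). Gars was the 1 cytosolic gene of the 5, with a log2 fold change of -0.16 (95% interval -0.31 to -0.01, limma adjusted p = 0.294). Control replicate 1, at 16.9 FPKM, lay within the A-PDK1KO range, and the other 4 controls lay above it.

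Lars2, for mitochondrial leucine, is a gene of Perrault syndrome, a disorder of hearing and ovarian function (chromosome 9, 123366927 to 123462666, plus strand). It stood at 75.2, 78.9, 58.3, 57.3 and 73.0 FPKM in controls and at 63.4, 60.7, 58.8, 50.3 and 39.3 FPKM in A-PDK1KO hearts. The controls fell into a higher set (replicates 1, 2 and 5) and a lower set (replicates 3 and 4), and the lower set lay inside the A-PDK1KO range. The log2 fold change was -0.33 ± 0.13 SE (95% interval -0.62 to -0.04, limma adjusted p = 0.249), -0.22 without A-PDK1KO replicate 5 and -0.12 among the 6 hearts with Myl7 under 10 FPKM. Its 14.6% variation among controls was far above the 1.16% expected from counting 4510 to 8866 reads.

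The level of Lars2 is uncertain, because part of its transcript has a near-identical copy elsewhere. A BLAST alignment of a Lars2 transcript with the antisense transcript Gm15564 on chromosome 16 found 72 bases that match at 98.6% identity. They lie in the last exon, exon 21, within the 3′ UTR (chromosome 9, 123462048 to 123462119). No other gene was aligned with Lars2 in this way, so short matches elsewhere were not examined. Gm15564 stood at 15.8, 16.0, 8.28, 11.6 and 18.2 FPKM in controls and at 12.8, 11.5, 11.1, 9.74 and 7.41 FPKM in A-PDK1KO hearts. The same 3 controls were high for Lars2 and for Gm15564, and A-PDK1KO replicate 5 was the lowest for each. Gm15564 had a log2 fold change of -0.35 (95% interval -0.76 to 0.06, limma adjusted p = 0.402). The part of reads shared between these genes in the level of Lars2 was not tested. Neither was a match of the 72 bases to ribosomal RNA, which would change what the level and the difference of Lars2 stand for. A search against all GENCODE transcripts kept only matches far longer than 72 bases. It could not show a short match to the mitochondrial ribosomal RNA mt-Rnr2. Mean mt-Rnr2 was lower in A-PDK1KO hearts, at 13400 ± 2780 and 8940 ± 1350 FPKM (mean ± SD, control and A-PDK1KO, n = 5 per group). Control replicate 3, in the lower set for Lars2, had 14800 FPKM of mt-Rnr2, and control replicate 4, also in that set, had 8810 FPKM. The lowest mt-Rnr2 was 6810 FPKM in A-PDK1KO replicate 2, with 8640 FPKM in replicate 5. The log2 fold change of mt-Rnr2 was -0.57 (limma adjusted p = 0.0836). A relation between mt-Rnr2 and Lars2 was not tested.

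**Figure D3:**
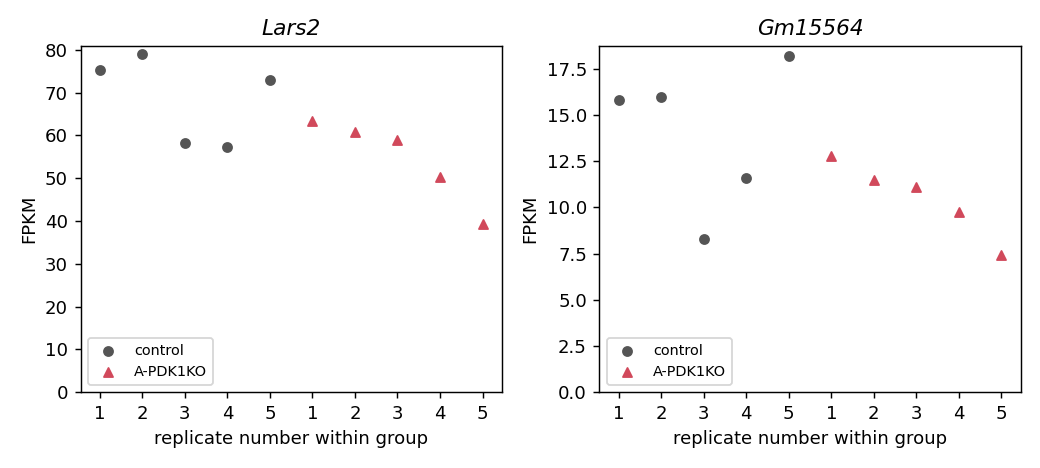
FPKM of Lars2 (left) and of Gm15564 (right), which share a 72-base stretch, in each heart by replicate number within its group; circles are controls and triangles A-PDK1KO hearts. Control replicates 1, 2 and 5 are high in each panel and A-PDK1KO replicate 5 is the lowest.

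The enzymes for leucine, isoleucine and valine were examined because branched-chain amino acids are the study's subject. None of their 6 genes was called (2.08% of all genes tested were), and Lars2 was the 1 of the 6 with an unadjusted p under 0.05 (15.6% of all genes tested). Iars stood at 5.19, 6.23, 6.63, 7.20 and 6.71 FPKM in controls and at 6.39, 6.19, 6.42, 7.48 and 7.03 FPKM in A-PDK1KO hearts. Lars, whose protein is also known as a leucine sensor upstream of mTORC1, stood at 7.81, 8.87, 8.71, 8.17 and 7.56 FPKM in controls and at 8.37, 9.31, 8.45, 9.03 and 9.23 FPKM in A-PDK1KO hearts. Vars stood at 4.70, 5.36, 6.59, 5.09 and 6.09 FPKM in controls and at 4.91, 4.52, 4.63, 5.18 and 5.22 FPKM in A-PDK1KO hearts. The groups overlapped for all 3 cytosolic genes, and the single lowest Iars value came from control replicate 1.

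Iars2, the mitochondrial isoleucine enzyme gene, stood at 8.55, 8.60, 9.44, 10.4 and 8.91 FPKM in controls and at 8.52, 11.0, 9.21, 10.6 and 9.26 FPKM in A-PDK1KO hearts. Its highest values came from A-PDK1KO replicates 2 and 4 and control replicate 4. Vars2 stood at 1.47, 3.27, 2.74, 2.67 and 2.85 FPKM in controls and at 2.43, 2.16, 2.40, 2.67 and 2.44 FPKM in A-PDK1KO hearts. Control replicate 1 was the low value of Vars2, which had the widest spread among controls of the whole set at 26.0%. Fars2, for mitochondrial phenylalanine and the third in level of its set, stood at 8.13, 9.18, 9.32, 9.09 and 9.53 FPKM in controls and at 8.58, 7.96, 8.44, 8.09 and 8.05 FPKM in A-PDK1KO hearts. Control replicate 1 again lay with the A-PDK1KO hearts, and the other 4 controls lay above them all.

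The other mitochondrial genes reported here lay between these levels, and none had an unadjusted p under 0.05. Aars2, the cardiomyopathy gene, was at 3.04 ± 0.355 FPKM in control and 3.16 ± 0.307 FPKM in A-PDK1KO hearts (mean ± SD, n = 5 each), with a log2 fold change of 0.04 and a 95% interval of -0.14 to 0.23. Hars2 and Tars2, for histidine and threonine, were at 3.66 ± 0.548 and 3.88 ± 0.336 FPKM in controls, and the A-PDK1KO mean of Hars2, 3.98 FPKM, included a value of 5.13 FPKM in replicate 2. Cars2 was at 3.41 ± 0.202 and 3.45 ± 0.483 FPKM in control and A-PDK1KO hearts. Sars2, Nars2 and Mars2, for serine, asparagine and methionine, were all under 2 FPKM in every heart. Their log2 fold changes were -0.01, 0.00 and -0.02.

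The other cytosolic genes also had small differences, none at an unadjusted p under 0.05. Farsb, Sars, Hars, Wars and Mars1 had control means from 9.87 FPKM (Mars1) to 11.8 FPKM (Sars), close enough that the ranges of neighbours overlapped. Wars, known as an interferon-induced synthetase, was at 8.91 to 11.0 FPKM in controls and at 8.77 to 10.9 FPKM in A-PDK1KO hearts. Mars1, which charges the tRNA that starts proteins made in the cytosol, was at 9.87 ± 1.15 and 9.95 ± 0.854 FPKM (mean ± SD, control and A-PDK1KO). Rars was at 9.26 ± 0.838 and 8.70 ± 0.260 FPKM, and Qars, the glutamine enzyme gene with no mitochondrial counterpart, at 6.53 ± 0.615 and 6.60 ± 0.490 FPKM. Aars was at 4.24 to 5.96 FPKM in controls and held within 5.38 to 5.63 FPKM in A-PDK1KO hearts. The low value of Aars came from control replicate 1, which was also the lowest heart for Eprs, Iars, Mars1, Qars, Tars and Yars.

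Further group means are given in the order control and A-PDK1KO. Nars averaged 17.1 and 16.0 FPKM, Dars 14.9 and 14.1, Sars 11.8 and 11.1, Farsb 11.4 and 11.6, and Hars 10.6 and 10.3. Tars averaged 3.70 and 3.76 FPKM and Yars 3.36 and 3.58, and among the mitochondrial genes Tars2 averaged 3.88 and 4.02, Sars2 1.73 and 1.72, Nars2 1.34 and 1.34, and Mars2 1.33 and 1.30. For all of these genes the groups overlapped.

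The multi-synthetase complex was compared with the free enzymes. None of the 8 complex enzymes had an unadjusted p under 0.05, and the median of their log2 fold changes was 0.01, with 5 of them above 0. The 12 free cytosolic genes had a median of 0.02 with 7 above 0, and Gars was the 1 with an unadjusted p under 0.05. Of all 9987 genes tested, 5457 were above 0. Within the complex, Eprs, the fused enzyme for glutamate and proline, had the largest positive difference, at 4.44 ± 0.458 and 4.93 ± 0.290 FPKM (mean ± SD, control and A-PDK1KO). Kars had the largest negative difference, at 22.3 ± 2.40 and 20.1 ± 1.24 FPKM. The 3 scaffold genes, named here after their values were seen, all had lower means in A-PDK1KO hearts. Aimp1 was at 9.66 ± 1.12 and 7.77 ± 0.920 FPKM (log2 fold change -0.28, 95% interval -0.49 to -0.08, limma adjusted p = 0.168, n = 5 per group). Aimp2 was at 10.4 ± 1.44 and 9.52 ± 0.747 FPKM, and Eef1e1 at 2.93 ± 0.455 and 2.49 ± 0.257 FPKM. None of the 3 passed. By structural class, 3 of the 17 tested class I genes were lower and 1 higher at an unadjusted p under 0.05, and 1 of 18 class II genes was lower, where 7.03% of all genes tested were lower and 8.53% higher. The difference between the classes was not tested.

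Cytosolic and mitochondrial genes for the same amino acid were set against each other within each heart, which removes any difference in scaling between hearts. Eprs was paired with both Ears2 and Pars2, and Fars2 with both Farsa and Farsb, so these pairs share a gene. In 12 of the 18 pairs the cytosolic gene was the higher in every heart, and in 5 pairs the mitochondrial gene was. Only Tars and Tars2 changed places between hearts, with a ratio of 0.789 to 1.02 in controls and 0.809 to 1.16 in A-PDK1KO hearts. The ratio was largest for Nars over Nars2, at 13.1 ± 2.65 in controls and 12.2 ± 1.95 in A-PDK1KO hearts. The mitochondrial gene was the higher for isoleucine, tyrosine, cysteine and leucine, and for phenylalanine where Fars2 is set against Farsa.

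No ratio separated the genotypes. The log2 difference of the ratio, A-PDK1KO minus control, had a median of 0.01 over the 18 pairs, with 9 above and 9 below 0. The largest positive difference was that of Eprs over Ears2 at 0.48. Eprs over Ears2 was 2.28 ± 0.295 in controls, where it ranged from 2.09 to 2.80, and 3.20 ± 0.573 in A-PDK1KO hearts, where it ranged from 2.62 to 4.05. Lars over Lars2 came next at 0.45, with ratios of 0.104 to 0.149 in controls and 0.132 to 0.235 in A-PDK1KO hearts. Summed over the cytosolic genes, the FPKM ranged from 166.5 to 190.4 among controls and from 174.8 to 185.3 among A-PDK1KO hearts. Summed over the mitochondrial genes without Lars2 it was 50.87 to 61.59 and 51.94 to 62.25 FPKM. The mitochondrial ranges overlapped almost fully. The cytosolic ranges overlapped only through control replicate 1, at 166.5 FPKM. Every other control was at 185.7 FPKM or more, above the highest A-PDK1KO heart at 185.3 FPKM. With Lars2 the mitochondrial sum was 116.1 to 134.2 and 94.28 to 123.0 FPKM, lower on average in A-PDK1KO hearts and still overlapping.

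**Figure D4:**
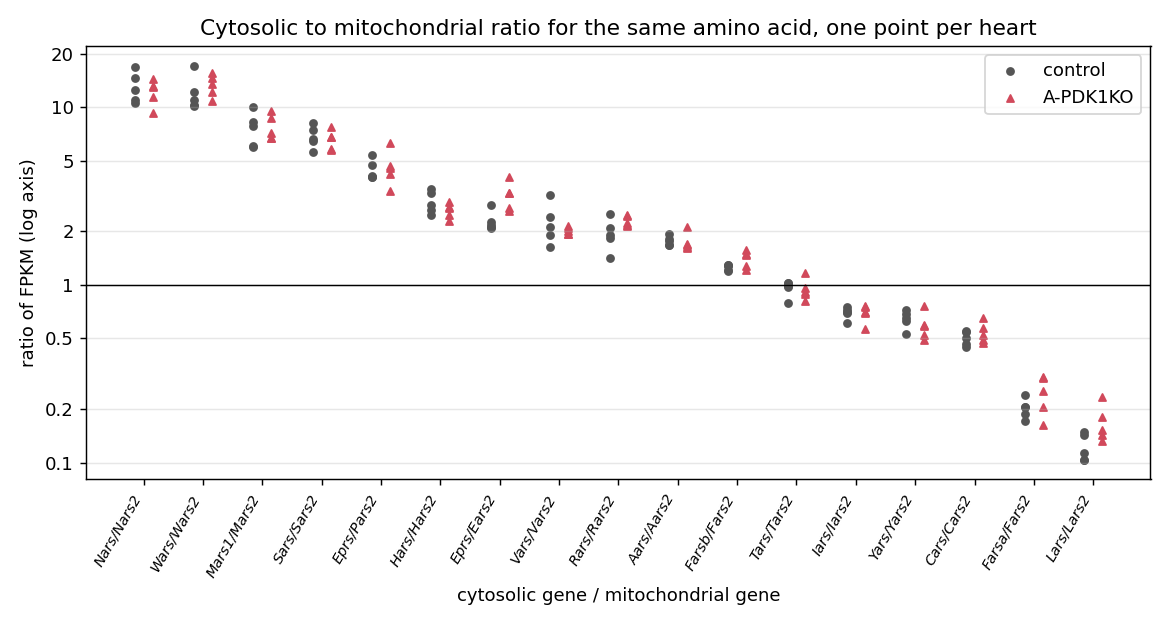
Ratio of FPKM of the cytosolic gene to the mitochondrial gene for the same amino acid, on a log axis, in every heart; circles are controls and triangles A-PDK1KO hearts, and the line marks equal levels. In 11 of the 17 pairs shown all points lie above the line, and circles and triangles overlap in every pair shown.

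Single hearts stood further apart than the genotypes did in the median level of each set. Control replicate 1 was the lowest of the 10 hearts for 7 of 20 cytosolic and 5 of 17 mitochondrial genes, while it was the lowest for 17.2% of all genes tested. Its cytosolic genes deviated from their mean over all hearts by a median of -0.13 on the log2(FPKM + 1) scale, against -0.04 for all genes. A-PDK1KO replicate 2 was the highest heart for 7 of 17 mitochondrial genes and for 4 of 20 cytosolic genes, and for 35.7% of all genes tested. The deviation there was 0.13 for mitochondrial genes, 0.00 for cytosolic genes and 0.14 for all genes. Control replicate 4 was the highest for 5 mitochondrial genes, with a deviation of 0.11 against 0.10 for all genes. In both of these hearts the median of the mitochondrial genes lay close to that of all genes, and the cytosolic median was 0.00 and 0.04. The difference between the sets was not tested.

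**Figure D5:**
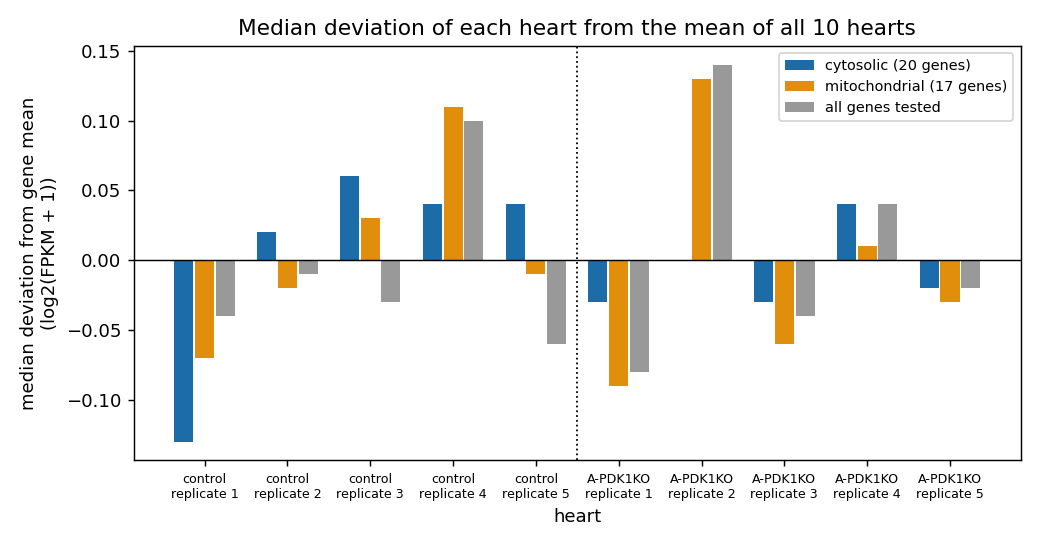
Median deviation of each heart from the mean of all 10 hearts on the log2(FPKM + 1) scale, for the 20 cytosolic genes, the 17 mitochondrial genes and all genes tested; the dotted line separates controls from A-PDK1KO hearts. The cytosolic bar is lowest in control replicate 1 (-0.13), and the mitochondrial bar is highest in A-PDK1KO replicate 2 (0.13), where the bar of all genes stands at 0.14.

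The wider machinery was described from lists of partner, tRNA maturation, mitochondrial translation and amino acid response genes. None of their tested members was called, against 2.08% of all genes tested. At an unadjusted p under 0.05, the measure of the counts that follow, 8.53% of all genes tested were higher and 7.03% lower. Of 13 tested partners and related enzymes 2 were lower at an unadjusted p under 0.05, and the median of the list was 0.02. Glutaminyl-tRNA in the mitochondrion is made by another route, in which glutamate is first attached and then amidated by the complex of Qrsl1, Gatb and Gatc. Qrsl1 was at 2.77 ± 0.467 and 2.77 ± 0.805 FPKM, Gatb at 8.51 ± 1.44 and 8.62 ± 0.938 FPKM and Gatc at 6.29 ± 1.07 and 7.23 ± 0.793 FPKM (mean ± SD, control and A-PDK1KO, n = 5 each). Of 33 tested genes of tRNA maturation and modification 2 were higher and 2 lower at an unadjusted p under 0.05, and their median was -0.01. Of 10 mitochondrial translation factors 1 was higher, and their median was 0.03.

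Among the 11 cytosolic synthetases known to respond to ATF4, 8 log2 fold changes were above 0, as were 5457 of all 9987 genes tested. The median of the 11 was 0.03, against 0.02 over all genes tested, and none was called. Of the 5 genes whose promoter windows held the ATF4-type letters, Aars had a log2 fold change of 0.03, Iars of 0.06, Tars of 0.02, Yars of 0.08 and Gars of -0.16. Atf4 itself averaged 20.1 ± 3.38 FPKM (control) and 16.3 ± 4.59 FPKM (A-PDK1KO) (limma adjusted p = 0.399). Psat1, a serine synthesis gene and ATF4 target chosen here after its values were seen, was at 0.812 to 0.927 FPKM among controls and at 0.929 to 1.23 FPKM among A-PDK1KO hearts. Its groups were parted only by 0.927 against 0.929 FPKM, and the reads behind these values are not given. Groups did not overlap for 4.96% of all genes tested, which leave out Psat1, and for 0 of the 22 tested genes of its list. Psat1 was not tested in the main comparison because its mean was under 1 FPKM. Of 22 tested genes of the amino acid response and ATF4 pathway 2 were higher and 5 lower at an unadjusted p under 0.05, against 8.53% and 7.03% of all genes tested, their median was -0.05 and 0 passed. With limma voom 0 passed and 7 had an unadjusted p under 0.05, against 15.3% of all genes.

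Position in the genome adds limits to some values. Of the 37 genes, 14 share exon bases with another annotated gene, and for 8 the shared part is at least 5% of their exon bases. The largest part is that of Iars2, where 22.9% of exon bases lie opposite Rab3gap2, and Aars shares 14.3% with Exosc6 on the same strand. Iars matches the transcript of Gm4849 over 1656 bases at 96.0% identity. The strand setting is unknown, and it would not separate reads of genes on the same strand or of matching sequence. The share of reads from such stretches cannot be told. Mars1 shares 68 bases with Ddit3, a stress gene induced through ATF4, on the opposite strand, and Ddit3 itself was at 4.28 and 4.14 FPKM (control and A-PDK1KO means). Hars and Hars2 are a head-to-head pair that starts from opposite strands. A protein-coding gene starts on the opposite strand within 1000 bases of the start of 4 of 20 cytosolic and 6 of 17 mitochondrial genes, Ears2, Fars2 and Rars2 among them, against 16.9% of protein-coding genes tested.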

How the data were processed

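RNA of 10 mouse hearts, 5 A-PDK1KO and 5 control, was compared, with groups from the sample titles. The deposited values are FPKM, 1 column per heart. Trimmomatic 0.38, HISAT2 2.1.0, featureCounts 1.6.3 and the build mm10 come from the submitters' processing notes. Per the labels' protocols, paired-end reads passed through FastQC 0.11.7. The sources used here do not give the annotation or the strand setting. A column of cluster numbers was not used.

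Genes whose mean over the 10 hearts reached 1 FPKM entered limma-trend (limma 3.58.1, R 4.3.3) on log2(FPKM + 1), A-PDK1KO minus control, two-sided and without covariates. A gene was called at a Benjamini-Hochberg adjusted p under 0.05 over all genes tested. Intervals are 95% intervals of the moderated fit. Reads were recovered with GENCODE M21 union exon lengths (mm10 coordinates) and lay within 0.05 of a whole number in every heart for 98.3% of genes. BLAST+ 2.17.0 gave the sequence matches and Python 3.11.15 the summaries.

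On simulated reads for 9808 genes in this comparison, limma-trend recovered 65% of genes changed 1.5-fold and 98% of those changed 2-fold, with 5 unchanged genes among 168 calls. The simulation gave every gene the same dispersion and no shift shared across a heart. The real hearts did shift as wholes, so these shares are not estimates for the data. No pair of samples within a group matched within sampling noise. The members and lists were chosen with earlier results of these data known. Levels in every heart are given for the 5 genes with an unadjusted p under 0.05, for the 2 highest and 2 lowest of each set and for the branched-chain enzymes. Fars2 is given as the next after Lars2 and Iars2. Values of 1 synthetase gene are not reported here, and the gene is kept in counts, medians and sums. Scaffold and amidotransferase genes, Atf4, Ddit3, Psat1, mt-Rnr2 and Gm15564 were named after their values were seen. Alternatives were another pseudocount, other filters, 3 other scales, atrial tissue as a covariate or exclusion, a replicate block, voom on recovered reads and each heart left out.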

Additional observations from a re-analysis of the deposited data

Results flagged for a closer look

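In each gene's 5 hearts per group, a heart was marked when its gap to the nearest other exceeded 0.71 of the group's range. Chance marks about 1 in 20 groups, and 3 of 74 were marked. For Gars it was control replicate 1, whose 16.9 FPKM lay under the 20.05 to 21.16 FPKM of the other controls. For Wars, A-PDK1KO replicate 3 had 8.77 FPKM while the rest of its group had 10.3 to 10.9 FPKM. For Hars2, A-PDK1KO replicate 2 had 5.13 FPKM and the rest of its group 3.45 to 3.82 FPKM.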

How the results depend on the processing

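No synthetase was called under any of the 20 alternatives run, and the lowest adjusted p of a synthetase was 0.0582 (Rars2 with median-of-ratios size factors). The median log2 fold change ranged from -0.03 to 0.07 for cytosolic and from -0.02 to 0.05 for mitochondrial genes, and neither median kept its sign across them. The 5 genes with an unadjusted p under 0.05 kept their sign in every alternative that could be fitted. Rars2 ranged from -0.36 to -0.22, Lars2 from -0.39 to -0.12, Ears2 from -0.32 to -0.15, Gars from -0.21 to -0.10 and Yars2 from 0.13 to 0.25. With a minimum of 5 FPKM, Rars2 and Ears2 were not tested.

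Over all genes, the 208 calls (121 higher, 87 lower) became 62 on the TPM scale, 390 (323 higher, 67 lower) with mitochondrially encoded and haemoglobin genes left out of the scaling, 207 (102 higher, 105 lower) with median-of-ratios factors and 4 in the 6 hearts with Myl7 under 10 FPKM. With 1 heart left out they ranged from 57 (without A-PDK1KO replicate 5) to 150 (without control replicate 4). Synthetases at an unadjusted p under 0.05 numbered 2 on the TPM scale and 1 in the hearts low in Myl7. With the replicate block 153 genes were called, 0 of them synthetases, and 4 synthetases had an unadjusted p under 0.05. The share of all genes at an unadjusted p under 0.05 is not given for these settings. The numbers 1 to 5 are not said to pair mice, the correlations of same-numbered hearts ran from -0.116 to 0.0851, and no control matched its own number best. Depth limits Pars2 and Wars2 most, at 26 to 62 reads per heart.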
